A study of Mus musculus with 2 samples.

Results

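The genes described here encode the nuclear-coded parts of respiratory complex III, respiratory complex IV and ATP synthase, with cytochrome c, the protein that carries electrons between complexes III and IV. They were taken by symbol alone: Uqcr, Cox followed by a digit, or Atp5 at the start of the symbol, plus Cyc1 and Cycs, leaving out pseudogene symbols. This gave 51 genes of the 16614 listed: 9 subunits of complex III, cytochrome c, 15 subunits and isoforms of complex IV, 9 complex IV assembly factors, 15 subunits of ATP synthase, and Atp5s and Atp5sl. Every symbol taken could be placed in 1 of these groups.

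Complex III takes electrons from ubiquinol and hands them to cytochrome c, and complex IV passes them from cytochrome c to oxygen. Both pump protons out of the mitochondrial matrix, and ATP synthase lets them back in to make ATP. Osteoclasts, the cells that dissolve bone, are rich in mitochondria, and the transcriptional coactivator PGC-1β (Ppargc1b) is known to raise mitochondrial genes as they form. The proteins encoded in mitochondrial DNA (mt-Cytb, mt-Co1, mt-Co2, mt-Co3, mt-Atp6 and mt-Atp8), which complete these complexes, were not analysed here.

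The series concerns the forkhead transcription factor FoxO3 and osteoclast formation. RNA came from bone marrow macrophages, grown from marrow of the femur and tibia, of Foxo3 KO mice and of WT mice, both of strain C57BL/6. Both cultures had 3 days of M-CSF, a macrophage growth factor, and then 2 days of RANKL, the cytokine that turns macrophages into osteoclasts. There was 1 library of each genotype. The labels do not give the knockout allele, the number of animals behind each culture or their age. The targeted gene Foxo3 read 0.548 FPKM in the KO library, against 10.3 FPKM in the WT library. FPKM is a transcript level corrected for transcript length and library size, so levels of different genes can be compared. Of the marker genes, all 9 osteoclast and all 8 macrophage markers found were above 0 in both libraries. The summed osteoclast markers were 22864 FPKM in the KO library and 20347 FPKM in the WT library, and the summed macrophage markers were 8323 FPKM in the KO library and 10244 FPKM in the WT library. Summed markers of B cells, T cells and mast cells were each under 1 FPKM in both libraries, with Pax5, Cd3e and Ms4a2 at 0 in both. Neutrophil markers summed to 124 FPKM in the KO library and 126 FPKM in the WT library, stromal markers to 5.83 FPKM in the KO library and 6.42 FPKM in the WT library, and dendritic cell markers to 1.65 FPKM in the KO library and 1.23 FPKM in the WT library. The megakaryocyte marker Pf4 read 26.2 FPKM in the KO library and 55.7 FPKM in the WT library.

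The difference of a gene is given throughout as a log2 ratio, log2(KO + 1) minus log2(WT + 1). Genes with 1 FPKM or more in either library are called measured, and these were 49 of the 51 and 10003 in all. With 1 library per genotype no value has a replicate error and no test was possible, so every difference is one between these 2 libraries. A size rule, a log2 ratio of 0.32 or more, stands in for a test. In bulk RNA, fewer cells of a type and less RNA per cell cannot be told apart.

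The 3 genes of the ATP synthase c ring are shown first, because their difference between the libraries was unequal although they make the same protein. The c ring is the rotor in the membrane that protons turn. The mature c subunit is made from Atp5g1 (chromosome 11), Atp5g2 (chromosome 15) and Atp5g3 (chromosome 2), each with its own import sequence. The last 75 codons of the 3 coding sequences are printed from GENCODE transcripts of the mm10 genome, 5′ to 3′, with capitals at the positions where the 3 genes are not all alike.
Atp5g1: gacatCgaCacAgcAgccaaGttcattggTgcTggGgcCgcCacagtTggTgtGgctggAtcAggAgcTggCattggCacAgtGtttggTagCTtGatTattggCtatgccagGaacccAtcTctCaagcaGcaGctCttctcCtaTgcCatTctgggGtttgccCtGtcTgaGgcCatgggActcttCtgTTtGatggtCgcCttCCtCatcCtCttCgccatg
Atp5g2: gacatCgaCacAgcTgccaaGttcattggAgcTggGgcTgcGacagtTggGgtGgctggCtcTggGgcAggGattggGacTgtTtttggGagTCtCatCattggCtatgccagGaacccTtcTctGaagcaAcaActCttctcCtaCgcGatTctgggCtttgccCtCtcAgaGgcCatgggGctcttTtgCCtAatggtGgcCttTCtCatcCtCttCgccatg
Atp5g3: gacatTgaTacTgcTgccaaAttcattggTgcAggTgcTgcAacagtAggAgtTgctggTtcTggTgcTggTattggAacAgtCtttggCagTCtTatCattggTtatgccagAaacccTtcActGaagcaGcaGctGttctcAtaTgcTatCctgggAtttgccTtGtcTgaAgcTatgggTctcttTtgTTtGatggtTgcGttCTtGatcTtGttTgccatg
The genes differed at 57 of these positions, 52 of them at the last base of a codon, and the 3 stretches translated to 1 and the same peptide. The longest identical run was 20 bases between the coding sequences of Atp5g1 and Atp5g2, 11 between Atp5g1 and Atp5g3, and 8 between Atp5g2 and Atp5g3. Near copies of Atp5g1 and Atp5g2 among other annotated transcripts are not part of this comparison.

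The promoters of 4 genes are shown next, 1 each for the complex IV subunits Cox8a and Cox6a1, for complex III and for the ATP synthase gene with the smallest difference. They are RefSeq sequences of build GRCm38.p6, from upstream of the gene's start into its first bases, written along the gene. Capitals mark matches to GCGCANGCG, the core of the site of NRF1, or to CCGGAAG, an ETS site of the kind that GABP (NRF2) binds, on either strand. NRF1 and GABP are the factors best known for driving nuclear respiratory genes.
Cox8a promoter, chr19:7217567-7217866, minus strand: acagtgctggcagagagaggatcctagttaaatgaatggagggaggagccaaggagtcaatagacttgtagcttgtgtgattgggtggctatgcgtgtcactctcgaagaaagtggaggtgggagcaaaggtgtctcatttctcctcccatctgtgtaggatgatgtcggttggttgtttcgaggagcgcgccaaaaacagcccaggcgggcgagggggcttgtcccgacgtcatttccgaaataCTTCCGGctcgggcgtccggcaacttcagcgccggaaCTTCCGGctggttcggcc
Cox6a1 promoter, chr5:115348909-115349208, minus strand: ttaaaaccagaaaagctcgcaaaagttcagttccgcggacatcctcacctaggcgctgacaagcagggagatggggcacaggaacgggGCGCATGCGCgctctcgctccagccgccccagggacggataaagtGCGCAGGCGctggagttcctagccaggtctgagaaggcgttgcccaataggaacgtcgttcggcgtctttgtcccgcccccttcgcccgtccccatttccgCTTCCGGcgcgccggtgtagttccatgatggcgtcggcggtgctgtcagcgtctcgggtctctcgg
Uqcr11 promoter, chr10:80406772-80407071, minus strand: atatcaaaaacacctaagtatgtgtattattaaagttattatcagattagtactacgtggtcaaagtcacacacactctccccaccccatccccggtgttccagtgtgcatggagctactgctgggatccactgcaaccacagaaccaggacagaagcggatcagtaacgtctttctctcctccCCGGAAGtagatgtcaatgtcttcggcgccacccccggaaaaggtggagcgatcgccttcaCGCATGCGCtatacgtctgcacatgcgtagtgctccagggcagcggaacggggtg
Atp5g2 promoter, chr15:102670998-102671297, minus strand: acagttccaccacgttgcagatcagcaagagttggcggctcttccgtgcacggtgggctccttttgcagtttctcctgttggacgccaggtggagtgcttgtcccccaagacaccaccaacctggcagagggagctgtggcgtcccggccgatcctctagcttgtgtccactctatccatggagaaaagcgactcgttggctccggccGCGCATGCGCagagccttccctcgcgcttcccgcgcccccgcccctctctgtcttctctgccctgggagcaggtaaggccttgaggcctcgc
Cox8a held ETS matches only, Atp5g2 NRF1 matches only, and Cox6a1 and Uqcr11 held both. Not every promoter held a match: those of the complex III genes Uqcr10 and Uqcrfs1, which are not printed, held none. The counts over all genes with a promoter sequence follow the expression values.

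Nearly all of the genes were higher in the Foxo3 KO library, by similar and small amounts. Of the 49 measured, 48 were above 0, against 57.6% of all measured genes. Among the 224 other genes both below 1000 bases in length and at 100 FPKM or more in 1 library, 80.8% were above 0. The exception among the 49 was Cox16. The count was 47 under trimmed-mean scaling or median centring, where Cox19 was also lower, and 46 with trends on transcript length and GC content removed, where Atp5g2 was lower too. The share of all genes above 0 was then 51.8% under trimmed-mean scaling, 50% under median centring and 58% with the trends removed. The median log2 ratio was 0.19, against 0.03 for all measured genes, and the middle of the list lay between quartiles of 0.15 and 0.24. The 51 genes together made up 4.02% of all FPKM in the KO library and 3.54% in the WT library. In KO, 7 of 8 macrophage markers were below WT and 6 of 9 osteoclast markers above it, while 57.6% of all measured genes were above it. Some of these markers were nearly level, such as Csf1r (-0.005), Cd68 (-0.025) and Ocstamp (0.026). The osteoclast markers Itgb3 (-0.28), Calcr (-0.06) and Dcstamp (-0.02) were below WT. The markers of each cell type thus did not all differ alike, and their part in the result was not tested.

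**Figure D1:**
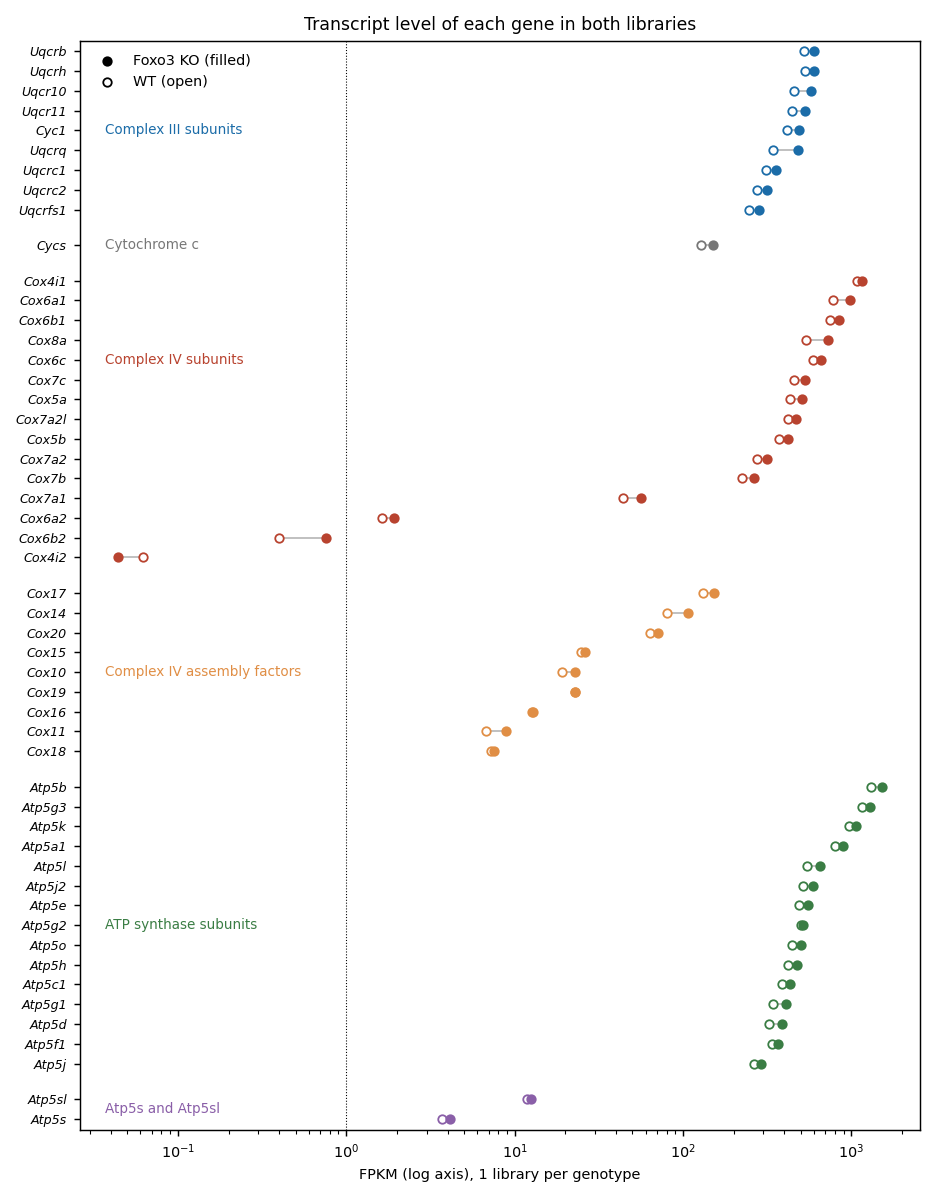
Level of each of the 51 genes in FPKM on a log axis, by group, with the Foxo3 KO library as filled and the WT library as open points, 1 library each; the dotted line is the 1 FPKM limit. Filled points lie to the right of open ones in all rows but Cox4i2 and Cox16, and Cox19 is nearly level.

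The size rule was met by 7 of the 49, all higher in the KO library. Among all measured genes, 2.96% were higher by as much. The 7 were Uqcrq and Uqcr10 of complex III, Cox8a, Cox6a1 and Cox7a1 of complex IV, and the assembly factors Cox14 and Cox11. No subunit of ATP synthase met it. Only Uqcrq, Cox8a, Cox14 and Uqcr10 still did under trimmed-mean scaling or median centring, and Uqcrq, Cox8a and Cox14 with length and GC trends removed. The share of all genes higher by the rule was 2.45% under trimmed-mean scaling, 2.24% under median centring and 2.23% with the trends removed. None of the 49 differed by 1.5-fold, as 1.35% of all measured genes did in either direction, or by 2-fold, as 0.32% did.

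**Figure D2:**
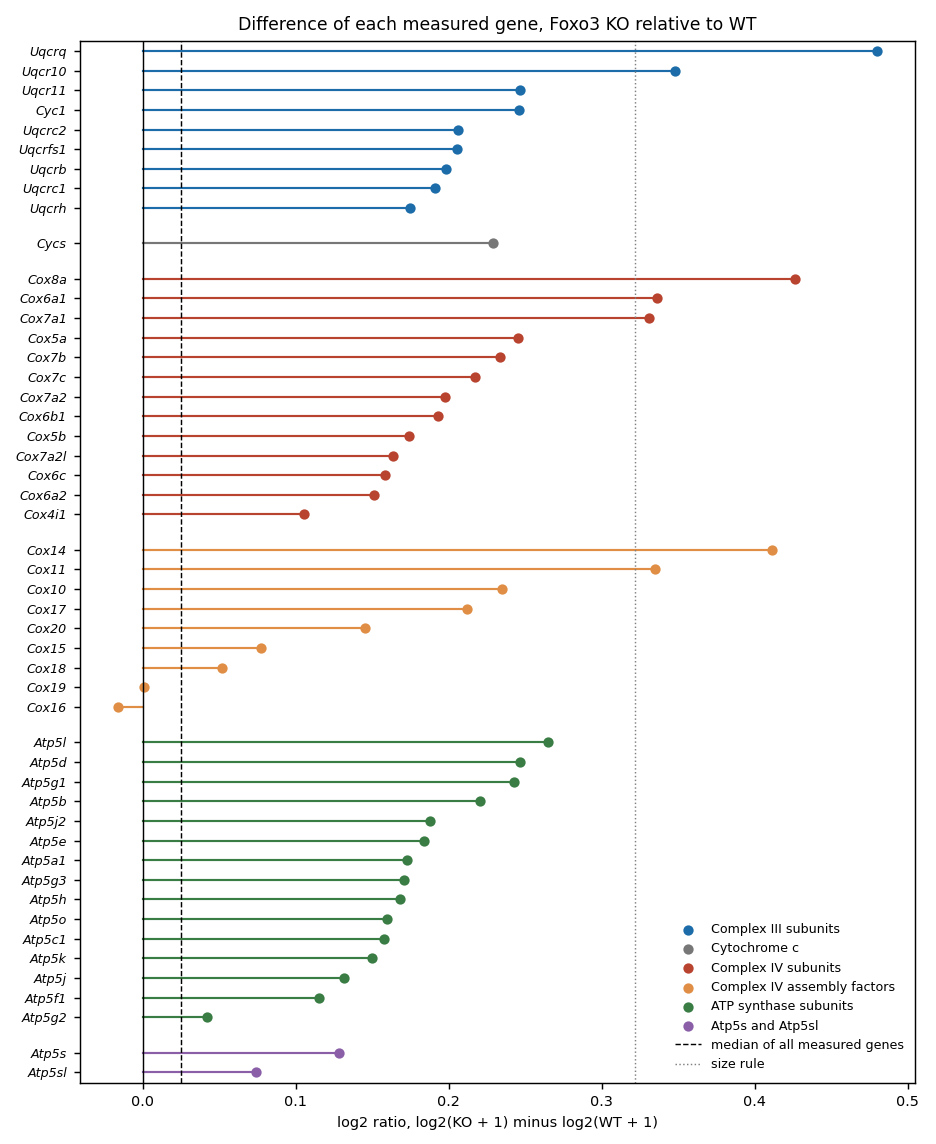
log2 ratio (Foxo3 KO relative to WT) of the 49 measured genes, by group and sorted within it; the dashed line is the median of all 10003 measured genes, 0.03, and the dotted line the size rule, 0.32. Uqcrq, Cox8a and Cox14 lie farthest right, and Cox16 alone lies left of 0.

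Complex III was higher in the KO library in all 9 of its subunits, with a median log2 ratio of 0.21. Its summed level was 4238 FPKM in the KO library and 3547 FPKM in the WT library. Its core consists of 2 large proteins and the electron carriers cytochrome c1 and the Rieske iron-sulphur protein. Uqcrc1 and Uqcrc2, the core proteins, stood at 357 and 316 FPKM in the KO library and at 313 and 274 FPKM in the WT library. Cyc1, cytochrome c1, stood at 492 FPKM in the KO library and 415 FPKM in the WT library, a log2 ratio of 0.25. Uqcrfs1, the Rieske protein, was the least abundant of the 9, with 284 FPKM in the KO library and 247 FPKM in the WT library (0.21). These 4 genes thus kept close together, between 0.19 and 0.25.

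The 5 small accessory subunits of complex III spread more widely. Uqcrq, a small subunit beside cytochrome b (mm10, chromosome 11, 53427922 to 53430831, as for all gene positions here), read 480.4 FPKM in the KO library and 344 FPKM in the WT library. Its log2 ratio of 0.48 was the highest of the 49 and ranked 4 among the 863 genes that reached 100 FPKM in 1 library. Uqcr10, another small subunit, read 579 FPKM in the KO library and 455 FPKM in the WT library, a log2 ratio of 0.35. Uqcrb and Uqcrh were the most abundant genes of complex III and lay near the median of the list. Uqcrb read 601 FPKM in the KO library and 524 FPKM in the WT library (0.20), and Uqcrh, the acidic hinge protein near cytochrome c1, 600.5 FPKM in the KO library and 532 FPKM in the WT library (0.17). Uqcr11 read 528 FPKM in the KO library and 445 FPKM in the WT library (0.25). Uqcrq and Uqcr10 were thus further apart between the libraries than the other 3 small subunits.

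Cytochrome c, Cycs, was measured at 151 FPKM in the KO library and 129 FPKM in the WT library, a log2 ratio of 0.23. Its level was below that of each complex III subunit in both libraries.

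Complex IV was higher in all 13 measured subunits, with a median log2 ratio of 0.20 and a range from 0.11 to 0.43. The 5 measured subunits with neither overlapping exons nor near copies, Cox6a1, Cox6b1, Cox7a1, Cox7a2 and Cox8a, had a median of 0.33. Its nuclear subunits surround a core coded in mitochondrial DNA, and several exist as a widely used and a tissue-restricted isoform. Cox4i1, the widely used form of the largest nuclear subunit, was the most abundant, at 1155 FPKM in the KO library and 1074 FPKM in the WT library. It also had the smallest log2 ratio of the 13, 0.11, and its exons overlap those of Emc8. At the other end was Cox8a, the small membrane subunit VIII (chromosome 19, 7215153 to 7217616), with 724 FPKM in the KO library and 538 FPKM in the WT library, a log2 ratio of 0.43. Cox6a1 (chromosome 5, 115345642 to 115348981) read 982 FPKM in the KO library and 777 FPKM in the WT library (0.34). These 2 subunits stood apart from the other abundant ones of the complex, which lay at 0.25 or below. With length and GC trends removed, Cox8a was at 0.33, but Cox6a1, at 0.23, was close to Cox7b (0.20) and Cox5a (0.19). Cox5a, which binds a thyroid hormone metabolite and sits on the matrix side, read 509 FPKM in the KO library and 429 FPKM in the WT library (0.25). Its partner Cox5b, which holds a zinc ion, read 419.9 FPKM in the KO library and 372 FPKM in the WT library (0.17). Cox6c, a small membrane subunit whose exons overlap those of Vps13b, read 661 FPKM in the KO library and 593 FPKM in the WT library (0.16). Cox6b1, Cox7a2, Cox7b and Cox7c lay between 0.19 and 0.23.

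The isoforms normally found in muscle, lung or testis made up little of each pair. Cox6a2, the heart and muscle form, read 1.92 FPKM in the KO library and 1.63 FPKM in the WT library, and its exons overlap those of Itgad. Cox6b2, the testis form, stood at 0.763 FPKM in the KO library and 0.398 FPKM in the WT library, while the widely used Cox6b1 read 849.7 FPKM in the KO library and 743 FPKM in the WT library. Cox4i2, the lung form, was at 0.0440 FPKM in the KO library and 0.0622 FPKM in the WT library, 70.8% of its WT value. The KO library was an estimated 1.40 times as deep, so an equal number of reads in both libraries would give a ratio of 0.714. Neither Cox6b2 nor Cox4i2 was measured by the 1 FPKM limit. Cox8b and Cox8c, the other isoforms of Cox8a, were not analysed here. Cox7a1, the muscle form of Cox7a, was the tissue-restricted isoform with the highest level: it read 56.0 FPKM in the KO library and 44.3 FPKM in the WT library, a log2 ratio of 0.33. It held 6.66% of Cox7a family transcripts in KO and 6.00% in WT. The other members of that family were Cox7a2, at 317 FPKM in the KO library and 276 FPKM in the WT library, and Cox7a2l, a factor that joins complexes III and IV into supercomplexes, at 468 FPKM in the KO library and 418 FPKM in the WT library (0.16).

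Complex IV assembly factors were less uniform than subunits and stood at lower levels. Their median level was 22.7 FPKM in the KO library, against 509 FPKM for the subunits. The factors had a median log2 ratio of 0.15, with quartiles of 0.05 and 0.23, and 8 of 9 were higher in the KO library, 7 under either scaling. Cox14, which helps the newly made mt-Co1 protein into the complex (chromosome 15, 99725618 to 99728136), read 107 FPKM in the KO library and 80.4 FPKM in the WT library, a log2 ratio of 0.41. Cox11, which delivers copper, read 8.84 FPKM in the KO library and 6.80 FPKM in the WT library (0.33), and its exons overlap those of Tom1l1. Cox17, a copper chaperone and the most abundant of the 9, read 152 FPKM in the KO library and 131 FPKM in the WT library (0.21). Cox10 and Cox15 make haem A, the cofactor of complex IV, in successive steps. Cox10 read 22.7 FPKM in the KO library and 19.2 FPKM in the WT library (0.23), and Cox15 read 26.3 FPKM in the KO library and 24.9 FPKM in the WT library (0.08). Cox20, a chaperone of mt-Co2, read 70.7 FPKM in the KO library and 63.8 FPKM in the WT library, and Cox18, which inserts mt-Co2 into the membrane, 7.54 FPKM in the KO library and 7.24 FPKM in the WT library. Cox16 and Cox19 were nearly level, at 12.6 and 22.7 FPKM in the KO library and 12.8 and 22.7 FPKM in the WT library. As with Cox11, exons of Cox10, Cox15, Cox16, Cox17 and Cox20 overlap another annotated gene. Whether level or overlap widened the spread of the factors was not tested.

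ATP synthase had the highest summed level of the complexes and the smallest median difference. The sums cover unequal numbers of genes. The median level per measured gene was closer, at 515 FPKM for ATP synthase, 509 for complex IV subunits and 492 for complex III in the KO library. In the WT library these medians were 486, 429 and 415 FPKM. All 15 subunits were higher in the KO library, with a median log2 ratio of 0.17 and a range from 0.04 to 0.26; Atp5g2 was lower with length and GC trends removed, at -0.04. The summed level was 9955 FPKM in the KO library and 8797 FPKM in the WT library, and the sum for complex IV subunits was 6936 FPKM in the KO library and 5945 FPKM in the WT library. Summed levels in KO were 1.19 times those in WT for complex III, 1.17 times for complex IV subunits and 1.13 times for ATP synthase. The spread of log2 ratios over genes (SD) was 0.10 in complex III, 0.09 in complex IV and 0.06 in ATP synthase.

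Within ATP synthase the catalytic head was led by Atp5b, the β subunit that binds and releases ATP (chromosome 10, 128083273 to 128090391), the most abundant of all 51 genes. It read 1524 FPKM in the KO library and 1308 FPKM in the WT library, a log2 ratio of 0.22. Atp5a1, the α subunit, read 898 FPKM in the KO library and 796 FPKM in the WT library (0.17), and shares exons with Haus1. The central stalk, which turns inside the head, comprises Atp5c1, Atp5d and Atp5e, with log2 ratios of 0.16, 0.25 and 0.18. Atp5d, the δ subunit, whose exons overlap those of Cbarp, read 385 FPKM in the KO library and 325 FPKM in the WT library. The peripheral stalk holds the head still against the rotor and had the lowest median log2 ratio of the 5 sub-groups, 0.15. Atp5o read 499 FPKM in the KO library and 447 FPKM in the WT library (0.16), and Atp5h had a log2 ratio of 0.17. Atp5j read 291 FPKM in the KO library and 266 FPKM in the WT library (0.13), and Atp5f1 read 364 FPKM in the KO library and 336 FPKM in the WT library (0.12). Exons of Atp5j overlap those of Gabpa, which codes for part of GABP. Of the small membrane subunits, Atp5l (g) had the highest log2 ratio of the complex, 0.26, with 654 FPKM in the KO library and 545 FPKM in the WT library. Atp5k (e) read 1072 FPKM in the KO library and 966 FPKM in the WT library (0.15), and Atp5j2 (f) 589.9 FPKM in the KO library and 518 FPKM in the WT library (0.19). Atp5e, the smallest part of the stalk, was at 552 FPKM in the KO library and 486 FPKM in the WT library.

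The c-ring genes printed above differed in how far apart the libraries were. Atp5g1 read 407 FPKM in the KO library and 344 FPKM in the WT library, a log2 ratio of 0.24. Atp5g3 read 1297 FPKM in the KO library and 1152 FPKM in the WT library (0.17). Atp5g2 read 515 FPKM in the KO library and 500.2 FPKM in the WT library, a log2 ratio of 0.04. Atp5g3 supplied most c-subunit transcripts in both libraries, at 58.4% in KO and 57.7% in WT. The share of Atp5g2 was 23.2% in KO and 25.1% in WT, and that of Atp5g1 was 18.4% in KO and 17.2% in WT. Transcripts of all 3 together were at 2219 FPKM in the KO library and 1996 FPKM in the WT library. Atp5g1 and Atp5g2 have near copies among other annotated transcripts, mostly processed pseudogenes, and Atp5g3 has none. Whether reads shared with such copies bear on the unequal log2 ratios was not tested.

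Atp5s and Atp5sl carry the symbol of the enzyme but are no part of its core. Atp5s, coupling factor B, read 4.15 FPKM in the KO library and 3.71 FPKM in the WT library, and Atp5sl, a related protein that has been linked to complex I assembly, 12.5 FPKM in the KO library and 11.8 FPKM in the WT library. Outside the symbols, Atpif1, the natural inhibitor of ATP synthase running in reverse, was level at 317 FPKM in the KO library and 326 FPKM in the WT library (-0.04). Usmg5, another small membrane subunit of the enzyme, read 535 FPKM in the KO library and 418 FPKM in the WT library (0.35).

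A wider list of 34 assembly factors of the complexes, which includes the 9 above, had a median log2 ratio of 0.13, with 32 higher in the KO library. Those past the size rule were Cox14, Cox11, Uqcc2 and Pet117. Uqcc2, listed under its older symbol Mnf1, works on the making of cytochrome b for complex III, and read 101 FPKM in the KO library and 74.4 FPKM in the WT library (0.43). The other complex III factors were closer to level, with 0.18 for Uqcc3 (listed as AI462493), 0.10 for Uqcc1 (listed as Uqcc) and 0.10 for Bcs1l, which inserts the Rieske protein. Pet117, a complex IV factor, was at 2.80 FPKM in the KO library and 1.92 FPKM in the WT library (0.38). Coa6, a copper factor of complex IV, read 34.3 FPKM in the KO library and 27.5 FPKM in the WT library (0.31), and Surf1, another complex IV factor, 29.0 FPKM in the KO library and 28.9 FPKM in the WT library. The ATP synthase factors Atpaf1, Atpaf2 and Tmem70 had log2 ratios of 0.15, 0.17 and 0.15.

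Genes for the regulators of this programme went both ways. Of 15 looked up, 14 were measured, with 8 above and 6 below the WT library in KO. The share above, 57.1%, was near the 57.6% of all measured genes. The median log2 ratio was 0.02, against 0.03 for all measured genes, and none met the size rule. Ppargc1b, for PGC-1β, read 23.8 FPKM in the KO library and 22.6 FPKM in the WT library (0.08), while its relative Ppargc1a was near 0 in both. Esrra, the nuclear receptor ERRα through which PGC-1β acts, had the highest log2 ratio of the list (0.22), at 56.0 FPKM in KO or 117% of its WT value. Tfb1m, which modifies mitochondrial ribosomal RNA, was next (0.21), with 7.75 FPKM in the KO library and 6.55 FPKM in the WT library. Esrra, Tfb1m and Gabpa were as far above WT as many of the respiratory genes. Exons of Gabpa overlap those of Atp5j, which stood at 291 FPKM in the KO library, and an effect of shared reads was not tested. The lowest of the list were the transcription factor genes Creb1, at 9.40 FPKM in the KO library and 10.4 FPKM in the WT library, and Myc, at 19.8 FPKM in the KO library and 21.7 FPKM in the WT library, each with a log2 ratio of -0.13. Nrf1 read 8.14 FPKM in the KO library and 8.58 FPKM in the WT library (-0.07), Gabpa 20.1 FPKM in the KO library and 17.9 FPKM in the WT library (0.16), and Tfam, the factor that packs and transcribes mitochondrial DNA, 10.6 FPKM in the KO library and 10.2 FPKM in the WT library (0.05).

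The same direction held in other mitochondrial gene sets, to a slightly smaller extent, and less so in cytosolic ribosomal protein genes, which are also short and abundant. The median log2 ratio was 0.16 over 48 measured genes of complexes I and II, 46 of them higher in the KO library. It was 0.15 over 76 mitochondrial ribosomal protein genes, of which 70 were higher, and 0.07 over 91 cytosolic ribosomal protein genes, of which 82 were higher. The medians of the 3 complexes described here, from 0.17 to 0.21, lay above all of these, but they cover subunits only. The set of complexes I and II was taken by symbol (Nduf at the start, or Sdha, Sdhb, Sdhc or Sdhd). Any assembly factors with such symbols were left in it. All 49 measured genes described here, assembly factors included, had a median of 0.19. No test of these differences was possible with 1 library per genotype. With length and GC trends removed, the ATP synthase median of 0.12 was level with that of the mitochondrial ribosomal proteins, 0.12, and close to that of complexes I and II, 0.11, while cytosolic ribosomal protein genes stood at 0.02.

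**Figure D3:**
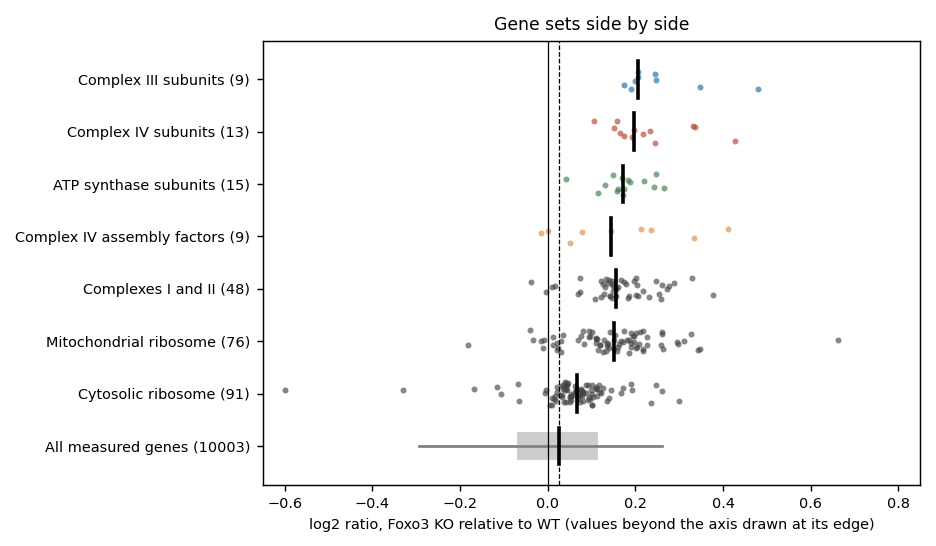
log2 ratio (Foxo3 KO relative to WT) of the measured genes of each set, 1 point per gene, with the median as a black bar and the number of genes in brackets; for all measured genes the box spans the quartiles and the line 5% to 95% of genes. The medians of complex III, complex IV and ATP synthase lie at 0.21, 0.20 and 0.17, right of the dashed median of all genes at 0.03.

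Transcript length moved with the log2 ratio over all genes and differed between these genes and the rest. Their median transcript length was 742 bases, against 2669 bases for all measured genes. Over other measured genes the median log2 ratio was 0.07 below 1000 bases and 0.02 at or above it. Among the genes described here it was 0.19 both for the 30 below and for the 19 at or above that length. The rank correlation (Spearman) of log2 ratio with length was still -0.186 among these genes, as against -0.185 over all measured genes. In each of 6 length classes, the median of these genes exceeded that of the others. In the shortest class, for example, below 500 bases, the 8 members had a median of 0.19 and the 51 other genes one of 0.10, and in the longest, from 2500 bases up, the 5 members had 0.23 and the 5418 others 0.01. With lowess trends on length and GC content removed, the medians were 0.18 for complex III, 0.14 for complex IV subunits and 0.12 for ATP synthase, against 0.02 for all measured genes. All 7 genes past the size rule had transcripts under 1000 bases. High level moved with the log2 ratio too: the median over the 825 other genes at 100 FPKM or more in 1 library was 0.05. Over the 224 other genes both below 1000 bases and at that level it was 0.08, and 181 of them (80.8%) were higher in the KO library. Without the mitochondrial and ribosomal sets compared above, 136 such genes remained, with a median of 0.07 and 69.1% higher.

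**Figure D4:**
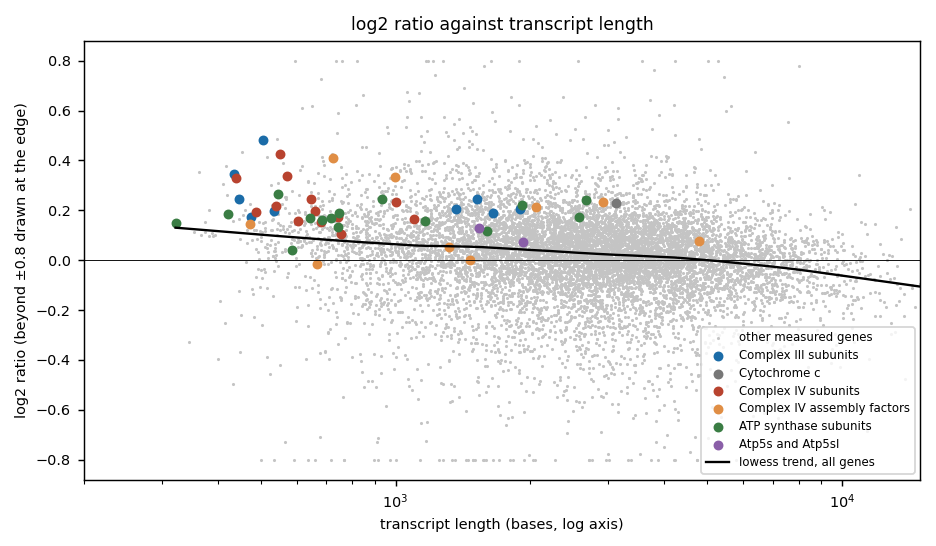
log2 ratio (Foxo3 KO relative to WT) against transcript length on a log axis, for all measured genes with a length (grey) and for the genes described here (coloured by group); the black line is the lowess trend over all genes. The line falls with length, and most coloured points lie above it at every length.

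Some values rest on reads that may be shared. Of the 51 genes, 19 have exons that overlap another annotated gene on either strand, in 15 cases a protein-coding one. The coding sequence of 18 matched another annotated transcript at 95% identity or more over 100 bases or more, mostly processed pseudogenes. Among these were Uqcr10, Cycs, Cox7c, Atp5l, Atp5g1 and Atp5g2. How the authors' counting treated such reads is not given. The 19 measured genes with neither overlap nor copy had a median log2 ratio of 0.19, as had all 49. Uqcrq, Cox8a, Cox6a1, Cox14 and Cox7a1 are among those with neither.

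Promoter sequences were found for 40 of the 51 genes. An NRF1 match, as capitalised above, lay in the promoter of 11 of the 40 genes (27.5%), against 16.7% of the 8086 other measured genes with a promoter and 6.25% of all 32851 promoters. The ETS letters CCGGAAG were found in 15 of 40 (37.5%), against 22.2% of other measured genes and 8.86% of all promoters. AANATGGCG, letters of the site of YY1, another regulator of respiratory genes, were found in 5 of 40 (12.5%), against 6.81% of other measured genes and 2.38% of all promoters. GTAAACA, the core that FoxO factors recognise, was found in 2 of 40, Cox7a2 and Atp5sl (5%), against 3.05% of other measured genes and 3.65% of all promoters. The first 3 motifs were thus commoner in these genes than in other measured ones, with no test made, and the fourth was rare in each.

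Genes with an NRF1 or ETS match were not further apart between the libraries than genes without. The median log2 ratio was 0.17 in the 11 genes with an NRF1 match and 0.20 in the 28 measured genes without. It was 0.18 in the 15 with an ETS match and 0.19 in the 24 without. Of the printed promoters, that of Cox8a belonged to a gene with a log2 ratio of 0.43 and that of Atp5g2 to one of 0.04. By complex, NRF1 matches were found in 7 of 16 genes of the Atp5 symbols, 1 of 18 complex IV genes, assembly factors included, and 2 of 5 complex III genes, while ETS matches were found in 5, 8 and 2 of them for ATP synthase, complex IV and complex III. A match is a description of these letters in this window and not a binding site.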

How the data were processed

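The authors deposited 1 table per library with a value per gene and a small constant (0.000001) in place of 0, which was subtracted. The tables name no unit. The values are read as FPKM, read fragments scaled by transcript length and library size, from their form, and the authors' deposited FPKM hold no read counts, so no count test was made. Low values, which are multiples of 1 read, gave a KO depth of 1.40 times the WT depth over 1661 genes, and absolute depth is unknown. TopHat, edgeR and the build mm10 stand in the submitters' processing notes, with no role given.

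From these values, log2 ratios of KO over WT were computed with a pseudocount of 1, which understates changes of low genes. Genes under 1 FPKM in both libraries were left out (10003 kept). In place of a test, a 1.25-fold difference is the size rule. Values are given for the 3 highest and 3 lowest log2 ratios at 10 FPKM or more and the 3 most abundant genes of each complex, isoform pairs, the c-ring genes, Cyc1 and Cycs, with other members and genes of the listed assembly factors and regulators named beside them. Members and lists were chosen with earlier results of these data known. Alternatives were other pseudocounts, minimums and folds, trimmed-mean scaling, median centring, lowess correction (span 0.3) for length and GC of transcripts, and omission of genes with overlaps or copies. Lengths, positions and overlaps came from GENCODE M21 (GRCm38, mm10). Copies were found with blastn 2.17.0, and promoters, 250 bases before to 50 after the start, are from RefSeq GRCm38.p6. Python 3.11.15, pandas 2.3.3, numpy 2.4.6, statsmodels 0.14.6 and matplotlib 3.10.9 were used. The lowess and scaling steps were tested on simulated data. Erythroid markers are not reported here.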

Additional observations from a re-analysis of the deposited data

How the results depend on the processing

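No paired analysis was possible because each genotype has 1 library, and for the same reason no library could be left out. Of the 49 measured genes, 7 met the size rule as reported, 4 under trimmed-mean scaling, 4 under median centring, and 3 with length and GC trends removed, in each case among the 7. With the rule at 1.5-fold 0 met it, and at 2-fold 0. A pseudocount of 5 left 5 and a minimum of 10 FPKM left 6. No minimum gave 8, through Cox6b2, which was under 1 FPKM in both libraries and is not among the 49. Over changes of pseudocount, minimum, scaling and trend, the median log2 ratio lay between 0.18 and 0.21 for complex III, 0.14 and 0.21 for complex IV subunits, 0.12 and 0.17 for ATP synthase, and 0.09 and 0.14 for the wider list of assembly factors. Single genes were less stable. With length and GC trends removed, the log2 ratio of 17 genes changed by a factor of more than 1.5 or in sign. Cox4i1 went from 0.11 to 0.03, Atp5k from 0.15 to 0.04 and Uqcr11 from 0.25 to 0.13. Leaving out genes with overlaps or copies within each complex, chosen after seeing the data, gave medians of 0.21 for 5 complex III subunits, 0.33 for 5 complex IV subunits and 0.19 for 4 ATP synthase subunits. The cause of these shifts was not tested. The offset removed was 0.02 (log2) by trimmed means and 0.03 by the median. Without replicates, no difference can be set against the spread between cultures, and values near 0 FPKM rest on few reads.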

Other observations

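Of the 863 genes that reached 100 FPKM in 1 library, 18 were higher in the Foxo3 KO library by the size rule and 36 were lower by it. Among all 10003 measured genes, 296 (2.96%) were higher by the rule and 416 were lower by it, so neither count stands out for the 863. The 863 include 38 of the respiratory genes described above, of which Uqcrq, Cox8a, Cox14, Uqcr10 and Cox6a1 were among the 18 and none among the 36. Among the other 13, which were named after their values were seen, were Uqcc2 (listed as Mnf1), the ATP synthase subunit Usmg5, the complex I subunit gene Ndufb4, the mitochondrial ribosomal protein gene Mrps6, Mpc2, part of the carrier that brings pyruvate into mitochondria, Chchd10, a protein of the mitochondrial intermembrane space, and Adck3, which acts in the making of coenzyme Q. The rest were Junb, Vasp, Car2, Hagh and Ddt, and Actr3, which was listed at 0 in the WT library.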
